A study of Homo sapiens with 6 samples.

Results

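The G1 cyclins and the inhibitors of their kinases were examined in neural stem cell (NSC) and embryonic stem cell (ESC) cultures as a group of 10 genes, of 18665 named on the array: the D cyclins CCND1, CCND2 and CCND3, the cyclins CCNE1 and CCNG2, the phosphatase CDC25A, and the CDK inhibitors CDKN1A, CDKN1B, CDKN2B and CDKN2D. The genes were chosen as a pathway with earlier results of these data known, their probes were taken by gene symbol from the annotation of the array, and 21 of the 48803 probes carried 1 of these symbols. The arrays were Illumina Human-6 beadchips, on which each probe reports the fluorescence of labeled RNA bound to it. Each of 6 arrays held total RNA from 1 culture: 3 NSC cultures, of the established human embryonic stem cell lines H1, HSF1 and HSF6, and 3 ESC cultures of the same lines. H1 was cultured without feeder cells at Rutgers, where NSC were derived in adherent culture, in neural induction medium followed by medium with bFGF. By preliminary array CGH, H1 carried duplications of unstated extent on chromosomes 12 and 17, and CCND2 and CDKN1B lie on chromosome 12. HSF1 and HSF6 were cultured and differentiated at UCLA, so that line and site cannot be told apart. No culture was repeated within a line, and the spread given below is that between the lines. RNA was measured from whole cultures, in which a change in the share of a cell type and a change in RNA per cell cannot be told apart.

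Progress through G1 is driven by D cyclins, which bind CDK4 and CDK6, and later by cyclin E, which binds CDK2; both kinases phosphorylate RB and thereby free the E2F factors that switch on genes of DNA replication. Inhibitors of the INK4 family (CDKN2B, CDKN2D) bind CDK4 and CDK6, whereas those of the Cip/Kip family (CDKN1A, CDKN1B) act mainly on CDK2. CDC25A removes inhibitory phosphates from the CDKs, and CCNG2 is an unusual cyclin associated with cell cycle arrest. Pluripotent stem cells are known for a short G1 phase that lengthens during differentiation.

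Promoter sequence is shown for the pair of genes that fell in NSC, CCNE1 and CDC25A, and for CCNG2 and CDKN2D, which rose in NSC, as the calls of these 4 genes held without any single array. RefSeq promoters of build GRCh38.p14 were matched for 8 of the 10 genes, in 10 windows of 250 bases before the annotated start. These windows were searched on both strands for an E2F motif (TTTCCCGC, TTTGGCGC, TTTCGCGC or TTTGCCGC), an E-box (CACGTG), an SP1 motif (GGGGCGGGG) and the CCAAT box. The motifs do not overlap with each other in the 4 windows, and capitals mark every match, a match on the other strand being printed as its complement (ATTGG for CCAAT).
CCNE1 (chr19:29811741-29811990, + strand): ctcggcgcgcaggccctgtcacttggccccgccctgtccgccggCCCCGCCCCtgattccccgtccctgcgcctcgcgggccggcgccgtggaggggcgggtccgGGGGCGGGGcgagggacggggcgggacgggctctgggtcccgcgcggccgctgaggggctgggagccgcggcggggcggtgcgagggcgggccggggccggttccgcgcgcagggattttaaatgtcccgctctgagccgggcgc
CDC25A (chr3:48188418-48188667, - strand): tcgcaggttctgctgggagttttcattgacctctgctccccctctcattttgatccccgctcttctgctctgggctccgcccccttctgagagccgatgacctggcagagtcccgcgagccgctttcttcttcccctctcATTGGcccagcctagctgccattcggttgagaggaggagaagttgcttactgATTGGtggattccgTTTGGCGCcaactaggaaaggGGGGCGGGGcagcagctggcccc
CCNG2 (chr4:77156957-77157206, + strand): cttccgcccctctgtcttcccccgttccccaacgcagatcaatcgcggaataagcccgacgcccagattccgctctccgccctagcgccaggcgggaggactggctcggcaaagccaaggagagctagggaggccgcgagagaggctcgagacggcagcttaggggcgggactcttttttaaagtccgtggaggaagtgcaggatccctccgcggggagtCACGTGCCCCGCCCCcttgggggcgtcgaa
CDKN2D (chr19:10568980-10569229, - strand): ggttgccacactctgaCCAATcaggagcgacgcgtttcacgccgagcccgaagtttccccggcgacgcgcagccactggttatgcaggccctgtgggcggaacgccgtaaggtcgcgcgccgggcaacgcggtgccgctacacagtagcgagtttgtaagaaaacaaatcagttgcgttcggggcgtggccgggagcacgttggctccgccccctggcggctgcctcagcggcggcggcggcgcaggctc
The CDC25A window held an E2F motif that begins 44 bases before the start, as well as an SP1 motif at 23 bases and CCAAT boxes at 58 and 110 bases. The CCNE1 window held SP1 motifs at 145 and 206 bases and none of the E2F words searched. In CCNG2 an E-box lay 30 bases and an SP1 motif 24 bases before the start, and in CDKN2D a CCAAT box lay at 234 bases. Among all 35116 promoters of the table, 2.79% held the E2F motif within the same window, 6.34% the E-box, 15.1% the SP1 motif and 32% the CCAAT box. These matches describe the letters of the windows and were not set against binding data.

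The deposited signals were on a common scale over the 6 arrays (the sorted signals of any 2 arrays differed by at most 0.407) and their background centred on 127 (SD 11.2). The limit of detection was set at 145. The 17402 probes that exceeded it on all 3 arrays of a stage were tested with limma on the log2 scale after background correction. Of these probes 14066 carried a gene symbol, for 11012 genes, and shares of all tested probes include those without a symbol. A probe was called at an adjusted p under 0.05 (Benjamini-Hochberg over all tested probes) and a difference of at least 1.5-fold. The stage labels were checked against marker genes: 6 of 6 tested pluripotency markers fell in NSC (POU5F1 with a log2 difference of -8.58 and LIN28A with -7.30), and 4 of 7 tested neural stem cell markers rose (SOX9 with 4.13 and FABP7 with 3.41), while SOX2 (-0.61), MSI1 (0.86) and NES (0.59) were not called. In H1 alone these 3 were lower in NSC, with differences of -2.72, -1.69 and -0.51, and SOX2 had signals of 790.3 in H1 NSC against 4586 in H1 ESC. Of the markers that rose, FABP7 differed by 0.87 in H1 against 5.03 (HSF1) and 4.32 (HSF6). SLC1A3 differed by 1.04 in H1 against 4.29 (HSF1) and 4.74 (HSF6). For SOX9 the differences were 3.99 (H1), 4.20 (HSF1) and 4.21 (HSF6), and for VIM 1.82 (H1), 2.93 (HSF1) and 1.37 (HSF6). The pluripotency marker NANOG was not tested, as HSF1 ESC lay below the limit. Its signals were 1943 (H1), 124 (HSF1) and 888 (HSF6) in ESC, against 118 to 122 in NSC. The defining marker PAX6 was not tested: its probe ILMN_2314140 had signals of 138 in H1 NSC, below the limit, and of 591 and 413 in HSF1 and HSF6 NSC, against 111 to 119 in ESC. HES5 had 135 in H1 NSC, at background, and 4115 and 1339 in HSF1 and HSF6 NSC, and SOX1 was below the limit on every array. Summed over 8 fibroblast markers, the signal above background was 150204 (H1), 37951 (HSF1) and 69274 (HSF6) in NSC, against 7411 to 18205 in ESC, and 6 of the 8 rose, with TAGLN and THY1 not called. Summed over 6 neuron markers it was 3324 (H1), 15635 (HSF1) and 18489 (HSF6) in NSC, against 2110 to 2507 in ESC. Summed over 4 endoderm markers it was 2.7 to 18.4 in NSC, against 948.8 to 1342 in ESC, and the 3 tested ones fell, with differences of -3.94 for AFP, -4.18 for CER1 and -3.22 for FOXA2. The part of such cells in the differences reported below was not tested.

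Of the 21 probes of the G1 genes, 16 were tested, and every one of the 10 genes had at least 1 of them. Of the 16, 7 were higher in NSC (CCNG2, CDKN1A, CDKN1B, CDKN2B and CDKN2D) and 2 were higher in ESC (CCNE1 and CDC25A), while 7 were not called. Among all tested probes, 10.3% were higher in NSC and 11.8% were higher in ESC, 22.2% in all. NSC and ESC signals did not overlap for 13 of the 16 probes (11 with NSC above ESC), against 44.5% of all tested probes. Taking the brightest tested probe of each gene, 4 of the 10 genes were higher in NSC and 2 were higher in ESC, with a median difference of 0.97 on the log2 scale, whereas 11.4% of all tested genes were higher in NSC and 12.4% were higher in ESC, with a median of -0.06. The CDKN2D probe and ILMN_1747244 of CCNG2 entered the test through NSC alone, and both are among the 11 probes with NSC above ESC. As the genes were chosen with earlier results of these data known, these shares describe the group and are not a test of it.

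**Figure D1:**
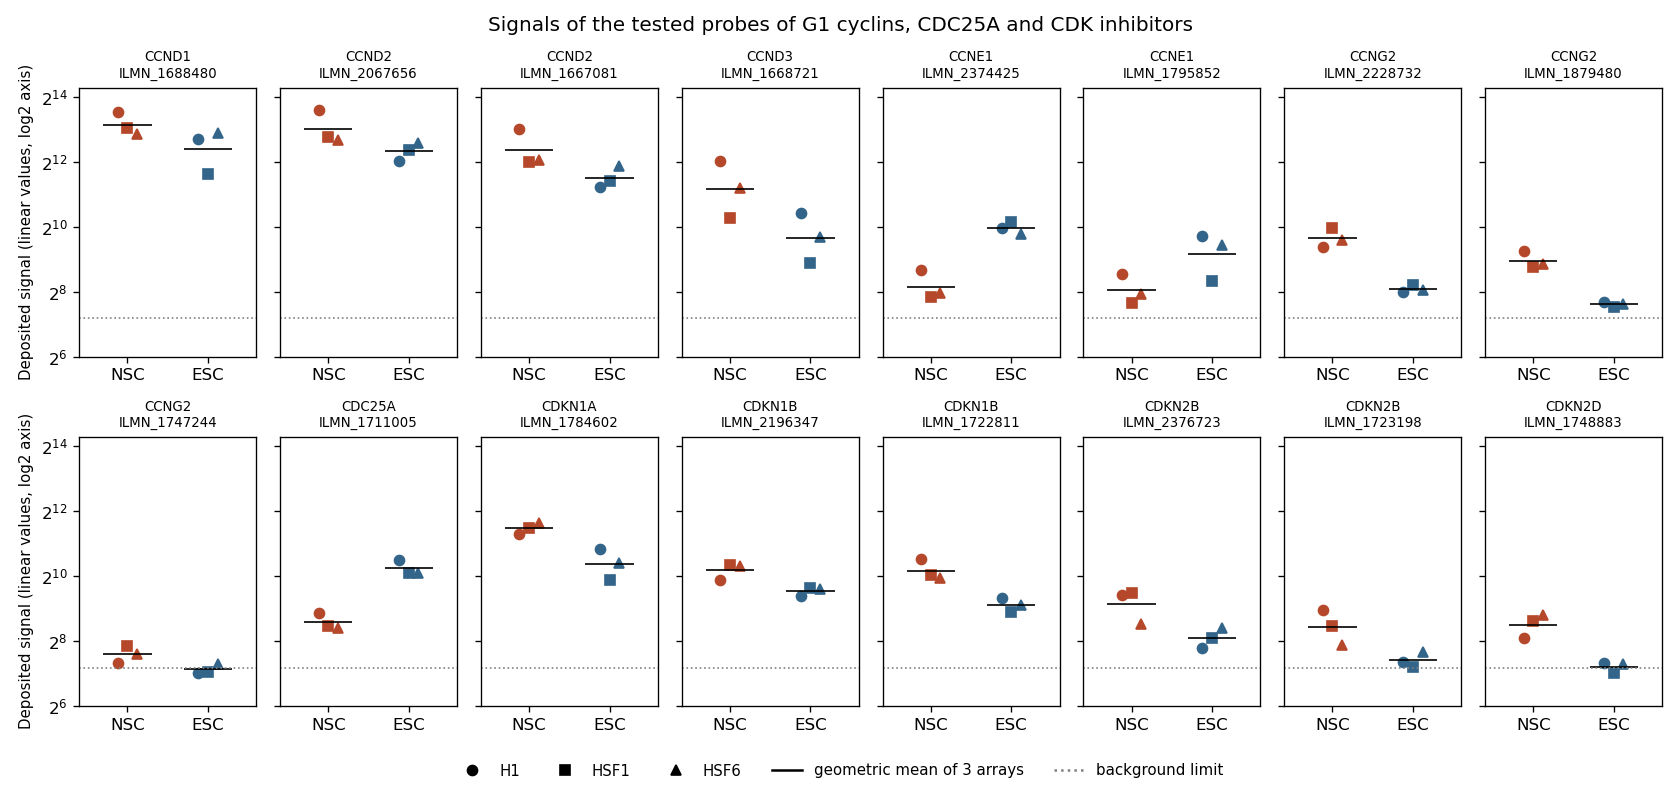
Deposited signal (linear values on a log2 axis) of the 16 tested probes in the 3 NSC and 3 ESC cultures, with 1 point per array, the geometric mean as a bar and the background limit as a dotted line. CCNE1 and CDC25A lie lower in NSC, the CDK inhibitors and CCNG2 lie higher in NSC, and the NSC and ESC points of CCND1, CCND3 and the CCNE1 probe ILMN_1795852 overlap.

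CCNE1, the cyclin that activates CDK2 at the end of G1, fell in NSC. Its probe ILMN_2374425 had signals of 409 (H1), 229 (HSF1) and 248 (HSF6) in NSC, against 1002 (H1), 1132 (HSF1) and 882 (HSF6) in ESC. All NSC cultures lay below all ESC cultures, and ESC varied little. The log2 signal averaged 7.39 ± 0.72 in NSC and 9.79 ± 0.20 in ESC (SD, n = 3 each), a difference of -2.40 (standard error 0.38, adjusted p = 0.00785 from limma), or 5.28-fold higher in ESC. A further CCNE1 probe, ILMN_1795852, had signals of 377 (H1), 200.4 (HSF1) and 243 (HSF6) in NSC, against 835 (H1), 319.6 (HSF1) and 699.7 (HSF6) in ESC. Its NSC and ESC signals overlapped, since HSF1 ESC was at a low level on this probe but at the highest level on the other one. The difference was -1.61 (95% interval -2.95 to -0.27, adjusted p = 0.0824), and it was called with the line as a block (adjusted p = 0.0207). The difference between both probes in their response was 0.79 (95% interval -0.36 to 1.94, adjusted p = 0.428 over all probe pairs). The remaining CCNE1 probe stayed below the limit on every array, between 116 and 132 in NSC and between 129.6 and 140.1 in ESC.

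CDC25A, the phosphatase that activates CDK2 complexes, fell as well. The signals of its probe ILMN_1711005 were 468 (H1), 349 (HSF1) and 337 (HSF6) in NSC, against 1454 (H1), 1091 (HSF1) and 1102 (HSF6) in ESC. The groups did not overlap, and the difference was alike in each line, namely -1.91 (H1), -2.05 (HSF1) and -2.13 (HSF6) on the log2 scale. The fitted difference was -2.03 (standard error 0.29, adjusted p = 0.00521 from limma), which is 4.08-fold higher in ESC. The other CDC25A probe lay near background throughout, with 125 to 148 in NSC and 136 to 166 in ESC, and was not tested. The calls of CCNE1 and CDC25A held without any single array but were lost without both HSF1 arrays (adjusted p = 0.0955 and 0.0769) or both HSF6 arrays (0.0857 and 0.0753), and that of CCNE1 was also lost with the methods' t-test (0.0531).

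The D cyclins, which respond to growth factors and start the phosphorylation of RB, had higher mean signals in NSC, but none of the 4 tested probes of the 3 genes was called. CCND1 had signals of 11739 (H1), 8473 (HSF1) and 7398 (HSF6) in NSC, against 6617 (H1), 3134 (HSF1) and 7564 (HSF6) in ESC. HSF6 was slightly lower as NSC than as ESC, whereas H1 and HSF1 were higher as NSC, and the groups overlapped. The difference was 0.76 on the log2 scale (95% interval -0.17 to 1.68, adjusted p = 0.203 from limma), and it was 0.36 without HSF1 ESC, the lowest array.

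CCND2, which likewise pairs with CDK4 and CDK6, was read by a pair of bright probes. ILMN_2067656 had 12434 (H1), 6959 (HSF1) and 6483 (HSF6) in NSC, against 4147 (H1), 5271 (HSF1) and 6176 (HSF6) in ESC. ILMN_1667081 had 8238 (H1), 4092 (HSF1) and 4263 (HSF6) in NSC, against 2403 (H1), 2720.2 (HSF1) and 3732 (HSF6) in ESC. On both probes every NSC culture lay above every ESC culture, and H1 was the highest of the NSC and the lowest of the ESC. The difference between the stages was 0.41 and 0.61 in HSF1, and 0.07 and 0.20 in HSF6, against 1.61 and 1.83 in H1. The differences were 0.70 (95% interval -0.08 to 1.48, adjusted p = 0.17) and 0.88 (0.04 to 1.71, adjusted p = 0.117), and the probes differed in response by 0.18 (95% interval -0.41 to 0.77, adjusted p = 0.753). Without both H1 arrays the differences were 0.24 and 0.40.

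CCND3, the remaining D cyclin, had signals of 4132 (H1), 1231 (HSF1) and 2359 (HSF6) in NSC, against 1386 (H1), 469.6 (HSF1) and 820.2 (HSF6) in ESC. The stages overlapped, because the lines kept their order from H1 as the highest to HSF1 as the lowest in both stages. Within each line, however, NSC exceeded ESC by nearly the same amount on the log2 scale, 1.66 in H1 and in HSF6 and slightly less in HSF1. The difference of 1.66 was not called without regard to the line (95% interval 0.27 to 3.04, adjusted p = 0.084 from limma) and was called with the line as a block (adjusted p = 0.0129).

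**Figure D2:**
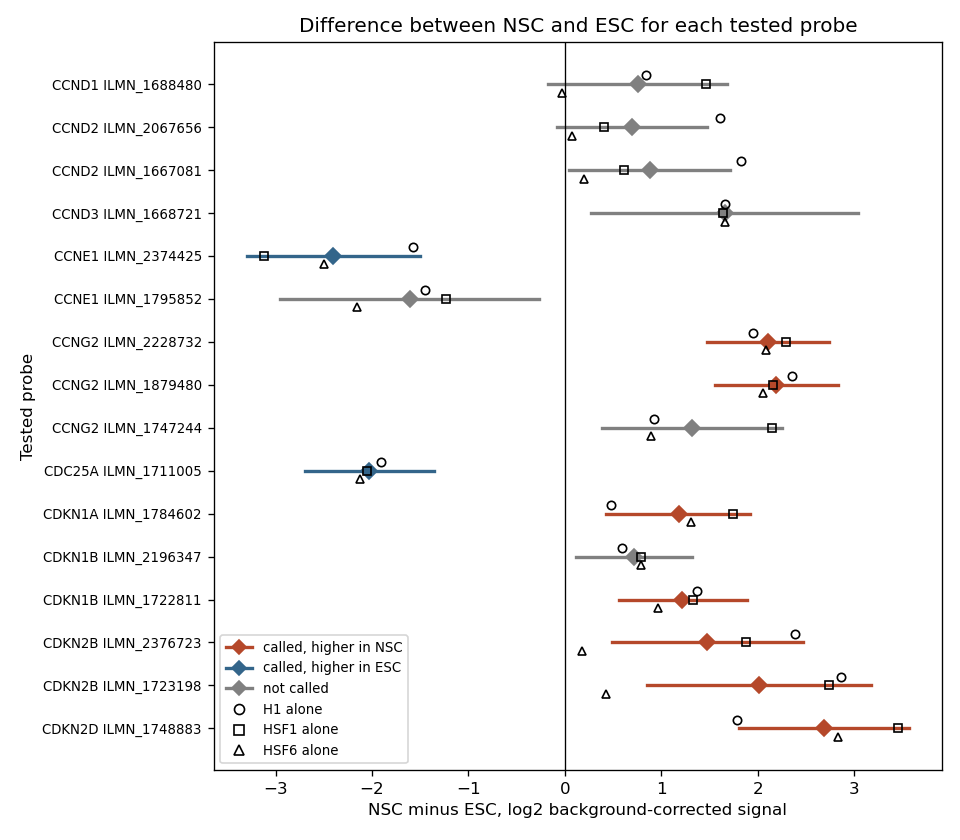
Difference between NSC and ESC in log2 background-corrected signal for the 16 tested probes (diamonds, with the 95% interval from limma), and the difference within each line alone (open symbols). The 3 lines of CCND3 fall together near 1.66, whereas those of CCND2 and CDKN2B are spread, with H1 at 1.61 and 1.83 and HSF6 at 0.07 and 0.20 for CCND2.

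CDKN2D, an INK4 inhibitor of CDK4 and CDK6, rose in NSC. Its probe ILMN_1748883 had signals of 275 (H1), 394 (HSF1) and 442 (HSF6) in NSC, against 159 (H1), 129.6 (HSF1) and 158 (HSF6) in ESC. All NSC cultures lay above all ESC cultures, of which HSF1 was below the limit and the other two were just above it. The log2 signal averaged 7.95 ± 0.53 in NSC and 5.26 ± 0.50 in ESC (SD, n = 3 each), a difference of 2.69 (standard error 0.38, adjusted p = 0.00507 from limma). Because ESC lay so close to background, the size depended on the background correction, and it was 1.29 without it, still called, while the probe entered the test through NSC. The second CDKN2D probe was below the limit on every array, at 116 to 118 in NSC and 102 to 113 in ESC.

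CDKN2B, the INK4 inhibitor that is induced by TGF-β, rose on both of its tested probes. ILMN_2376723 had 688 (H1), 706 (HSF1) and 369 (HSF6) in NSC, against 222 (H1), 273 (HSF1) and 339.6 (HSF6) in ESC. ILMN_1723198 had 497 (H1), 356 (HSF1) and 233 (HSF6) in NSC, against 164 (H1), 147 (HSF1) and 201 (HSF6) in ESC. The groups did not overlap on either probe, but HSF6 was the lowest NSC and the highest ESC culture on both, and its own difference was only 0.18 and 0.43 on the log2 scale. The differences over the 3 lines were 1.48 (standard error 0.42, adjusted p = 0.045) and 2.02 (standard error 0.50, adjusted p = 0.0289 from limma). Both probes differed in response by 0.53 (95% interval -0.28 to 1.35, adjusted p = 0.451). The call of ILMN_2376723 was lost with the line as a block (adjusted p = 0.0723) and without any 1 array other than HSF6 NSC (0.0582 to 0.127), and that of ILMN_1723198 without H1 ESC (0.0815), HSF1 ESC (0.0925) or HSF1 NSC (0.0796). Neither probe was called without background correction (differences of 1.04 and 1.03, adjusted p = 0.0611 and 0.0593) or without both H1 arrays (1.03 and 1.59, adjusted p = 0.149 and 0.0874). The remaining probe of CDKN2B did not reach the limit, at 118 to 135 in NSC and 124 to 137 in ESC.

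CDKN1A, the Cip/Kip inhibitor also known as p21 and a classic target of p53, had signals of 2489.6 (H1), 2867 (HSF1) and 3166 (HSF6) in NSC, against 1811 (H1), 938 (HSF1) and 1341 (HSF6) in ESC. All NSC cultures lay above all ESC cultures, and H1 had the smallest step, 0.48 on the log2 scale, against 1.74 in HSF1 and 1.31 in HSF6. The fitted difference was 1.18 (standard error 0.32, adjusted p = 0.0378 from limma), or 2.26-fold. The call was lost with the line as a block (adjusted p = 0.0524) and without HSF1 NSC (0.0974), HSF6 NSC (0.123), HSF1 ESC (0.0915) or HSF6 ESC (0.0907). The second CDKN1A probe did not reach the limit on any array, at 127 to 132 in NSC and 118 to 137 in ESC.

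CDKN1B, the Cip/Kip inhibitor also known as p27, rose on 1 of its 2 tested probes. ILMN_1722811 had signals of 1472 (H1), 1038 (HSF1) and 983 (HSF6) in NSC, against 637 (H1), 479 (HSF1) and 557 (HSF6) in ESC. ILMN_2196347 had 948 (H1), 1302 (HSF1) and 1261 (HSF6) in NSC, against 668 (H1), 800.5 (HSF1) and 776 (HSF6) in ESC. NSC and ESC did not overlap on either probe, while H1 was the highest culture of each stage on the first and the lowest of each stage on the second. The differences were 1.22 (standard error 0.28, adjusted p = 0.0236 from limma) and 0.72 (95% interval 0.12 to 1.32, adjusted p = 0.082), and the difference between the probes was 0.50 (95% interval -0.37 to 1.37, adjusted p = 0.507). The call of ILMN_1722811 was lost without HSF1 NSC (adjusted p = 0.0568), HSF6 NSC (0.0584), HSF1 ESC (0.0727) or HSF6 ESC (0.064), and with the methods' t-test (0.0629).

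CCNG2, the cyclin associated with arrest, which in human cells is induced by FOXO factors, rose about equally on a pair of probes. ILMN_2228732 had signals of 671 (H1), 1003 (HSF1) and 778 (HSF6) in NSC, against 257 (H1), 294 (HSF1) and 268 (HSF6) in ESC. ILMN_1879480, designed on a different cDNA record, had 607 (H1), 436 (HSF1) and 467 (HSF6) in NSC, against 208 (H1), 184 (HSF1) and 197 (HSF6) in ESC. The lowest NSC signal exceeded the highest ESC signal on either probe. The differences were 2.11 (standard error 0.27, adjusted p = 0.00396 from limma) and 2.19 (standard error 0.27, adjusted p = 0.00354), or 4.31-fold and 4.58-fold. Without background correction they were 1.57 and 1.35, both still called. Another, dim probe, ILMN_1747244, had 161 (H1), 232 (HSF1) and 196 (HSF6) in NSC, against 129.97 (H1), 133 (HSF1) and 157 (HSF6) in ESC, of which only HSF6 was above the limit. Its difference was 1.32 (95% interval 0.39 to 2.25, adjusted p = 0.0521), and it was called with the line as a block (adjusted p = 0.0462). Against ILMN_2228732 its response was lower by 0.79 (95% interval -1.56 to -0.01 for the difference, adjusted p = 0.229 over all probe pairs), and this difference passed the threshold without background correction (adjusted p = 0.0115) and with an offset of 50 (0.0277). The calls of CCNG2 and CDKN2D held without any single array and were lost without both HSF1 arrays (adjusted p = 0.0582, 0.0574 and 0.074 for ILMN_2228732, ILMN_1879480 and CDKN2D) or both HSF6 arrays (0.0673, 0.0594 and 0.0626).

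Probes of the same gene were thus compared in 7 pairs from 5 genes. None of the 7 passed an adjusted p of 0.05 in limma over all 3634 probe pairs of the array, of which 6.99% passed, and 1 of the 7 had an unadjusted p under 0.05. The 95% intervals of the 7 pairs leave room for differences between probes of up to 1.98 on the log2 scale, so that equal response of the probes of a gene is not shown. The widest bound was that of ILMN_1747244 against ILMN_1879480 of CCNG2 (-1.98 to 0.23). For ILMN_1879480 against ILMN_2228732 of CCNG2 the interval was -0.78 to 0.95. In all 5 genes the tested probes had the same direction. The genes for which a probe was not tested (CCNE1, CDC25A, CDKN1A, CDKN2B and CDKN2D) each had 1 probe at or near background beside at least 1 that was above it.

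The NSC difference of H1 was set against that of the HSF lines for each tested probe. With 1 H1 array per stage, the spread in this test comes from HSF1 and HSF6 alone, and the same spread is assumed for H1. None of the 16 probes passed an adjusted p of 0.05 in limma, against 0.259% of all tested probes. An unadjusted p under 0.05 was found for 3 of the 16, a share near the 15.8% of all tested probes. These 3 were both probes of CCND2 and ILMN_2374425 of CCNE1. For CCND2, on chromosome 12, the difference between the stages was 1.61 in H1 and 0.24 in the HSF lines on ILMN_2067656 (adjusted p = 0.229), and 1.83 in H1 and 0.40 in the HSF lines on ILMN_1667081 (adjusted p = 0.247 in limma). CDKN1B lies on chromosome 12 as well, and its difference was 1.37 in H1 and 1.15 in the HSF lines on ILMN_1722811, and 0.59 in H1 and 0.79 in the HSF lines on ILMN_2196347. For CCNE1 it was -1.58 in H1 and -2.81 in the HSF lines (adjusted p = 0.299 in limma). H1 NSC, which had the highest signals of CCND1, CCND2 and CCND3 among the NSC, also had the highest sum of fibroblast markers and the lowest sum of neuron markers, and the part of these cells in the D cyclin signals was not tested.

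The partners and controls of these genes were followed in lists of the G1 pathway, of which each gene is represented by its brightest tested probe. Among the G1 kinases and the CDK-activating kinase, 1 of 6 tested genes rose and 2 fell. CDK6, a partner of the D cyclins, rose by 1.73 on the log2 scale (adjusted p = 0.02 from limma), whereas CDK7, the catalytic subunit of the CDK-activating kinase, fell (-2.08, adjusted p = 0.00313), as did its assembly factor MNAT1 (-1.03, adjusted p = 0.0467). CDK4 and CDK2 had differences of -0.50 (adjusted p = 0.22) and 0.22 (adjusted p = 0.529). Of the other cyclins, 2 of 3 tested genes fell, CCNC, which binds CDK8 (-1.55), and CCNA2, the cyclin of S phase (-1.11), and CCNE2 was not detected on any array. Among the other CDK inhibitors, 1 of 3 tested genes rose and 1 fell: CDKN1C, the third Cip/Kip inhibitor, rose by 1.28, and CDKN3, a phosphatase that acts on CDK2, fell (-1.05). With the line as a block 1 of these cyclins fell and none of these inhibitors did.

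Of 15 tested genes of the RB family and the E2F factors, 3 rose: RB1 by 1.32, its relative RBL2 by 1.18, and LIN37, a subunit of the DREAM repressor complex, by 0.96 on the log2 scale. The remaining 12 were not called, among them E2F3 to E2F8 and E2F2, whose difference of 1.57 was larger than that of RB1 (adjusted p = 0.0529, all NSC above all ESC). With the line as a block 4 genes of the list rose, and without background correction 2 did. LIN37 lay near the limit and entered the test through NSC, with signals of 181 to 188 in NSC against 144 to 155 in ESC. E2F1 was not above the limit on any array. Of the kinases and phosphatases that act on the inhibitory tyrosine of CDKs, with the checkpoint kinases that control them, all 5 tested genes were called, 1 higher in NSC and 4 higher in ESC (1 and 3 with the line as a block). CDC25B, a phosphatase related to CDC25A, rose by 1.63, in the opposite direction to CDC25A, while CDC25C fell (-1.36), and so did the checkpoint kinases CHEK2 (-2.16) and CHEK1 (-1.33). The kinase WEE1, named after its value was seen, fell as well (-1.19, adjusted p = 0.0465 from limma). Ubiquitin ligase parts had 1 of 9 tested genes higher in NSC, FBXW7, which targets cyclin E for degradation (0.94), and 1 lower in NSC, CKS1B, a cofactor in the degradation of CDKN1B (-1.01). These counts are read against 23.8% of all tested genes called, 11.4% higher in NSC and 12.4% higher in ESC.

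**Figure D3:**
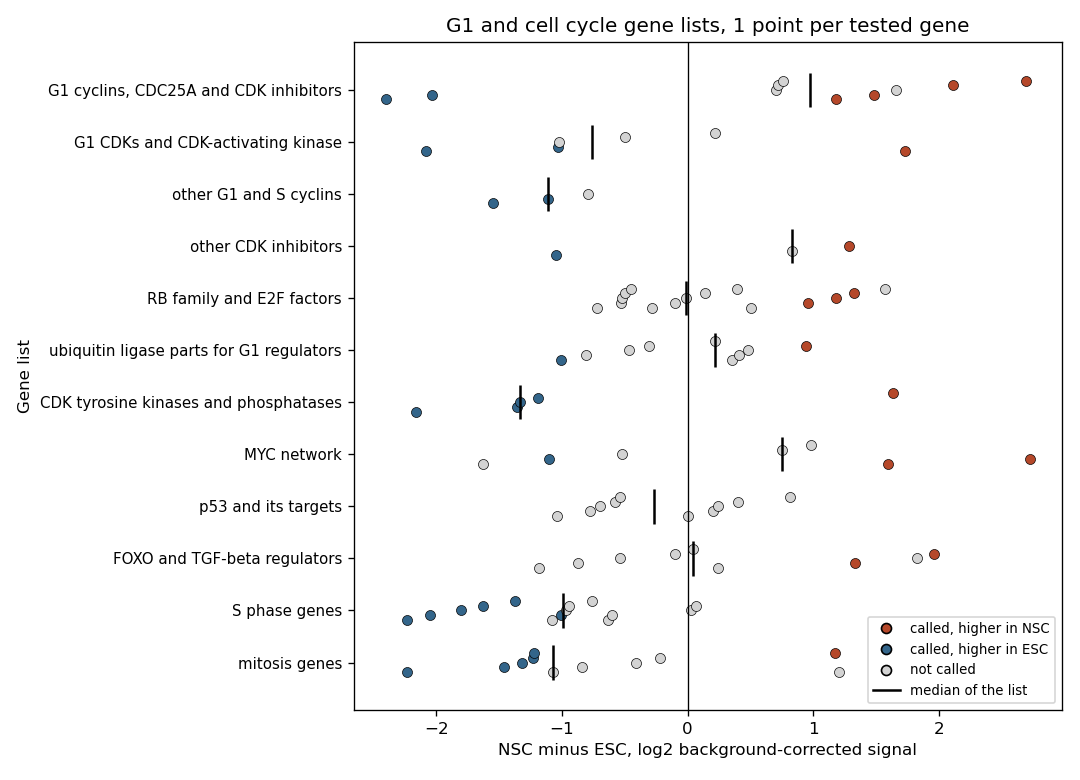
Difference between NSC and ESC in log2 background-corrected signal, with 1 point per tested gene, for the G1 cyclins, CDC25A and CDK inhibitors and for 11 further lists of the cell cycle; colour gives the call and the black bar the median. The medians of the S phase genes (-0.99) and mitosis genes (-1.07) lie below 0, and that of the G1 genes lies at 0.97.

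In the MYC network, 2 of 7 tested genes rose and 1 fell (42.9% called), against 23.8% of all tested genes called either way. MXD4 and MXI1, which compete with MYC for its partner MAX, rose by 2.72 (adjusted p = 0.00874 from limma) and 1.59, and MAX fell (-1.10), while MYC itself had a difference of -0.52 (adjusted p = 0.631) and MYCN one of -1.63 (adjusted p = 0.0517). Of 9 tested FOXO and TGF-β regulators, 2 rose, FOXO3 by 1.33 and SMAD3, a mediator of TGF-β signals, by 1.96. The 22.2% called in this list was near the 23.8% of all tested genes. SMAD3 was uneven over the lines, with differences of 3.59 (H1), 1.62 (HSF1) and 0.67 (HSF6). With the line as a block, 1 gene of the MYC network was higher in NSC, and 1 of the FOXO and TGF-β regulators was higher in NSC and 1 higher in ESC. Of the 16 genes of the p53 list, 13 were on the array and 10 were tested. MDM2, FAS and BBC3 were not tested, with signals of at most 164.5 on any array. None of the 10 tested genes was called by limma or by the methods' t-test, and the median of the list was -0.27. An unadjusted p under 0.05 in limma was found for 2 of them, both lower in NSC. Without H1 NSC, and likewise without both H1 arrays, 1 gene of this list was called as higher in ESC by limma.

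Genes of DNA replication and mitosis mostly had lower signals in NSC. Of 14 tested S phase genes, 6 fell, among them ORC1, a subunit of the origin recognition complex (-2.23), the licensing factor CDT1 (-2.05), and the helicase subunits MCM4 (-1.80) and MCM5 (-1.63). The other 8 were not called, and the median of the list was -0.99. Of 11 tested mitosis genes, 5 fell and 1 rose, with a median of -1.07: the checkpoint kinase BUB1 (-2.23), the Aurora kinases AURKA (-1.46) and AURKB (-1.23), and CDC20, an activator of the anaphase-promoting complex (-1.32), were among those that fell. The gene that rose was CENPF, a kinetochore protein, by 1.17, named after its value was seen. MKI67 of the same list had a difference of 1.20 with all NSC above all ESC, but was not called (adjusted p = 0.0933 from limma). Its signals were 184 to 265 in NSC and 136 to 182 in ESC, where 1 array was above the limit. Over all pathway lists 12 genes were called as higher in NSC and 22 as higher in ESC. Among all tested genes 11.4% were higher in NSC and 12.4% were higher in ESC, and the share of the lists higher in NSC was near the former. Without both HSF6 arrays the counts of the lists were 1 and 2, and without both HSF1 arrays no gene of the lists was called.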

How the data were processed

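Total RNA of 3 NSC and 3 ESC cultures was measured on Illumina Human-6 beadchips. The deposited values are intensities that the authors summarised per probe in BeadStudio, per the labels, with no version given; they are linear and share 1 distribution over the arrays, and the normalization is not given in the sources used here. A table of unnormalized signals (24 columns) names no sample and was not used.

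Background (mode of the signals, mean 127, SD 11.2) was removed by the normexp model, 16 was added and log2 taken. Probes above 145 (mean plus 1.64 SD) on all 3 arrays of a stage were tested in R 4.3.3 with limma 3.58.1, 3 arrays against 3 without covariates. Probe pairs of 1 gene (3634 pairs, 2562 genes) and the interaction of stage with H1 were tested likewise. The script was tested on simulated data.

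Symbols of 27578 probes were updated through gene identifiers of GRCh38.p14; 13 probes had several symbols and 21212 none. The members and gene lists were chosen with earlier results of these data known. Named are all probes of the members, up to 4 called genes of each pathway list and up to 2 of each marker list with the largest difference, and the genes most correlated with CCND1, CCND2, CCNE1 and CDKN1A; other genes named, such as CENPF, were chosen after their values were seen. Both stages of a line share the line label, which pairs the arrays: deviations from the stage means had a correlation between stages of 0.17 (H1), 0.22 (HSF1) and 0.10 (HSF6). Arrays carry no count depth, and their number limits the precision. P-values measure the spread between lines.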

Additional observations from a re-analysis of the deposited data

How the results depend on the processing

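No tested probe of the G1 genes changed direction under any of the 16 alternatives run for the stage comparison. Without both HSF1 arrays limma called 325 probes in all, against 3860 with every array, and 0 probes or genes of the G1 group and 0 genes of the pathway lists in either direction, with 2 arrays per stage. Without both HSF6 arrays it called 530 probes, of which 1 was a G1 probe higher in NSC and 0 higher in ESC (0 genes by brightest probe), and 1 pathway gene higher in NSC and 2 higher in ESC. Without the detection filter, 4 probes and 2 genes of the G1 group and 6 pathway genes were higher in NSC. The methods' t-test, run here on the background-corrected values of the probes that passed the detection filter, called 1500 probes. How the authors processed the values before their own test is not given, so this count is not theirs. Of the G1 group, the t-test called 3 probes and 2 genes higher in NSC and 1 probe and 1 gene higher in ESC. Of the pathway lists it called 1 gene higher in NSC and 8 higher in ESC. A limma test against a 1.5-fold limit called 1133 probes, with 3 probes and 2 genes of the G1 group higher in NSC, and 1 pathway gene higher in NSC and 6 higher in ESC. CDKN1A and both probes of CDKN2B were among the calls lost without the filter, with the t-test and against the 1.5-fold limit, and CDKN1B was lost with both of these tests. Leaving out 1 array gave 1531 to 4466 called probes, 3 to 8 G1 probes and 2 to 4 G1 genes higher in NSC, 2 to 3 G1 probes and 2 G1 genes higher in ESC, and 2 to 10 pathway genes higher in NSC and 11 to 23 higher in ESC; without HSF6 NSC the count over all probes was lowest. With the cell line as a replicate block 3951 probes were called, with 7 G1 probes higher in NSC and 3 higher in ESC, and the block changed no call of a G1 probe other than those named in the report. Of the probe pairs of the G1 genes, 1 passed the threshold without background correction and 1 with an offset of 50. The difference in response between ILMN_1879480 and ILMN_2228732 of CCNG2 was -0.22 without background correction and -0.07 with an offset of 50, against 0.09; that between ILMN_1723198 and ILMN_2376723 of CDKN2B was -0.01 without background correction, against 0.53; and the difference between H1 and the HSF lines for ILMN_1795852 of CCNE1 was -0.05 without background correction, against 0.25. None of these was called. The cause was not tested. Leaving out single arrays was not run for the probe pairs or for H1 against the HSF lines. Signals in ESC were close to background for CDKN2D, ILMN_1747244 of CCNG2, LIN37, MXI1 and MKI67, and in part for ILMN_1723198 of CDKN2B. This limits the size of their differences. The other tested probes of CCNG2 and CDKN2B were above the limit on every ESC array, and their differences too were smaller without background correction.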

Other observations

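Over the 6 arrays, the signal of CCND2 correlated most with those of PPIC (Pearson's r = 0.9968), THAP12 (0.995) and BMF (0.9943) among 11002 other tested genes, and 90 genes had an r over 0.95. CCND1 correlated most with PGRMC2 (0.9936), MICOS13 (0.992) and ATP9B (0.9907), with 40 genes over 0.95, CCNE1 with CRYBB1 (0.9973), L1TD1 (0.9969) and TMEM177 (0.9968), with 274 genes over 0.95, and CDKN1A with MIEF1 (0.9933), TCEAL3 (0.9928) and KLHL28 (0.9923), with 102 genes over 0.95. These correlations are over 6 arrays that share 3 lines and 2 stages, are given as a description, and carry no test.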
